A study of Mus musculus with 10 samples.

Results

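Calbindin and its relatives are the proteins that bind calcium inside neurons and glia, and 9 of their genes were examined in the hippocampus of mice that explored an open field much or little. The genes were Calb1, Calb2, Pvalb, S100b, Hpca, Hpcal1, Hpcal4, Ncald and Vsnl1. They were taken by name: all probe sets of the array whose platform annotation gave 1 gene symbol, equal to one of these, were kept. This gave 17 of the 45037 probe sets of the array besides its controls. Calb1 had 4 of them, Ncald 3, S100b, Hpca and Vsnl1 2 each, and the other genes 1 each. The mice were inbred Balb c/J females from 1 supplier, adult at testing and all born on 1 day, with no treatment given in the labels, so that neither genotype, agent nor age separated the groups. They had been ranked by a composite score of their activity in an open field over repeated sessions, and 5 mice were labelled High Exploration and 5 Low Exploration. RNA of the whole hippocampus of each mouse was read on 1 Affymetrix array, and values are given here as log2 of the MAS5 signal unless stated otherwise. The number of arrays limits the precision of every comparison.

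Calcium enters a neuron in brief pulses, and proteins that bind it with EF-hand loops either take it up, which shapes the pulse, or change their form on binding it and pass the signal on. Calbindin (Calb1), calretinin (Calb2) and parvalbumin (Pvalb) are known mainly as buffers, and they mark different cells of the hippocampus. In the mouse, calbindin fills dentate granule neurons, part of the CA1 pyramidal neurons and some interneurons. Calretinin is found in mossy cells, young granule neurons and other interneurons, and parvalbumin in fast-spiking basket cells. S100b is a calcium-binding protein of astrocytes and some oligodendrocytes. Hippocalcin (Hpca), its relatives Hpcal1 and Hpcal4, neurocalcin delta (Ncald) and visinin-like 1 (Vsnl1) form a family of neuronal calcium sensors, which carry a fatty acid tail that lets them move to membranes when calcium rises.

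Marker genes of hippocampal neurons were looked at first. Above the filter on low signals described below were 5 of 6 measured markers of dentate granule neurons and 7 of 8 of pyramidal neurons. The granule marker C1ql2 and the CA1 marker Fibcd1 were below it, and the files hold no detection calls. The filter lies at the median of all probe sets, and 3 of 4 thalamic and 7 of 8 astrocyte markers were above it too. These counts therefore do not show where the RNA came from. No signal of any marker was 0, but this held for every probe set, as the lowest signal was 0.262 on the linear scale. The level of the poly-A controls, transcripts added to the RNA before labelling, ranged from 11.7 to 13 in High Exploration and from 13.5 to 14.6 in Low Exploration. For the hybridisation controls these ranges were 13.1 to 13.9 and 13.7 to 14.5. Both move with the groups, and their part in the differences given here was not tested. The ratio of the 3' to the 5' probe set of Gapdh was likewise 3.96 to 5.21 in High and 3.49 to 4.06 in Low Exploration on the log2 scale. That of Actb did not follow the groups, at 4.33 to 5.9 in High and 4.28 to 5.98 in Low Exploration.

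The upstream sequences of Hpcal4 and Vsnl1 are shown because, of the sensors with a RefSeq promoter, their brightest probe sets had the largest differences between the groups. They are the 250 bases before the outermost annotated start, 5′ to 3′ on the gene's strand, in mouse build GRCm38.p6. Hpcal4 lies on the forward strand at chr4:123183254-123183503 and Vsnl1 on the reverse strand at chr12:11436579-11436828. Capitals mark the GC box GGGCGG on either strand, a match of letters only.
Hpcal4: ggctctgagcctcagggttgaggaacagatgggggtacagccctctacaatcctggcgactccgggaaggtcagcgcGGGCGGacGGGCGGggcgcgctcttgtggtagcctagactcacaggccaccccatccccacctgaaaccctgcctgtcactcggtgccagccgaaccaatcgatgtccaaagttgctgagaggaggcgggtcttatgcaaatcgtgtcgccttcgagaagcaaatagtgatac
Vsnl1: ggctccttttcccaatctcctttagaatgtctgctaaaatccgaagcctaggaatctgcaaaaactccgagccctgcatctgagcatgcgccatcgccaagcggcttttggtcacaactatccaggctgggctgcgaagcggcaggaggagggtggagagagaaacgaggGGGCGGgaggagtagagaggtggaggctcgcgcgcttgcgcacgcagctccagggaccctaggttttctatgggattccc
The GC box was found 2 times before Hpcal4 and 1 time before this start of Vsnl1, and 32.7% of all 32851 promoter windows of this length held it. The cyclic AMP response element TGACGTCA (1.55% of windows), its core TGACG (17.8%, which includes every full element) and the TATA box TATAAA (12.4%), all searched on both strands, were absent from these letters in all 10 windows of the 6 members with a promoter in the table (Hpca, Hpcal1, Hpcal4, Pvalb, S100b and Vsnl1). GC made up 60.4% of the Hpcal4 window and 58% of that of Vsnl1, against a median of 52.4% over all windows. Calb1, Calb2 and Ncald have no entry.

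Of the 17 probe sets, 15 had a mean signal above the median of all probe sets (220 on the linear scale) and were tested. Those of Calb2 and a further one of Hpca were below it. None of the 15 passed limma's threshold, an adjusted p of 0.05 over all 22518 probe sets tested, and the lowest adjusted p was 0.0675. Of all tested probe sets 0.226% passed. With array weights 1 of the 15 passed and 9.81% of all tested probe sets did, and without High Exploration replicate 5 it was 1 of the 15 and 4.53% of all. At an unadjusted p under 0.05, 4 of the 15 were higher and 5 lower in High Exploration mice, where the shares of all tested probe sets were 9.57% and 20.7%. In 2 probe sets every High Exploration mouse lay above every Low Exploration mouse (2.14% of all tested) and in 1 every High Exploration mouse lay below (6.78%). The count lower at an unadjusted p under 0.05 was 2 without High Exploration replicate 1, and 3 without High Exploration replicate 4 or Low Exploration replicate 4. The median difference of the 15 was −0.02, against −0.32 over all tested probe sets.

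**Figure D1:**
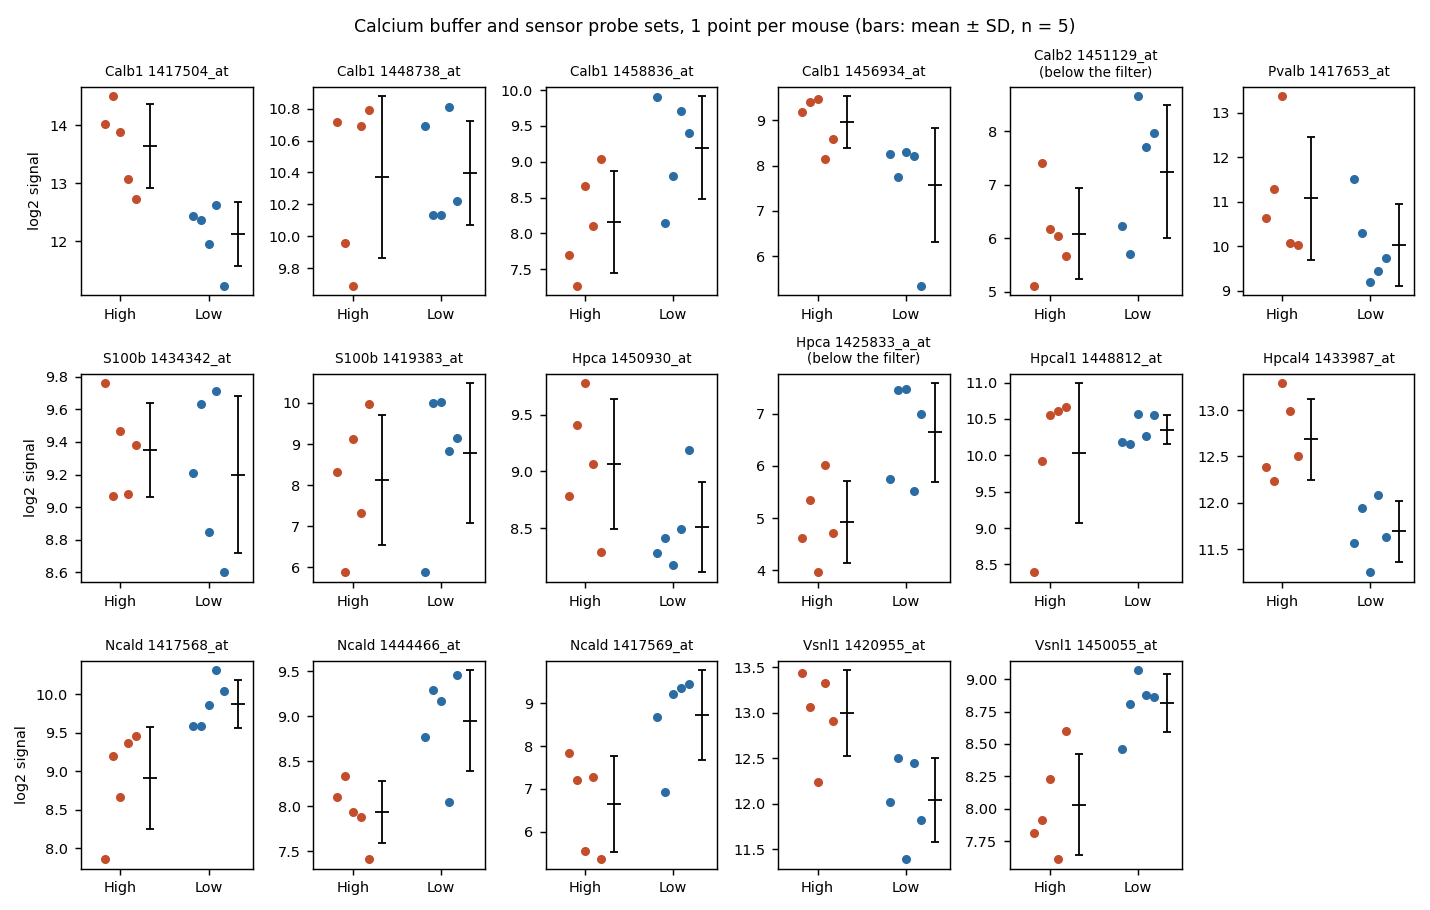
Log2 signal (vertical axes, a different range in each panel) of the 17 probe sets in High and Low Exploration mice, 1 point per mouse, with the mean and SD of each group as bars (n = 5). The groups stand fully apart in 3 tested probe sets, Calb1 1417504_at and Hpcal4 (High above Low) and Ncald 1417568_at (High below Low).

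The direction depended on the scale of an array for some members. The authors multiplied each array by a constant, and the top decile of probe sets by mean log2 signal had a median difference of 0.43 while the deciles below it had medians from −0.17 to −0.65. When arrays were instead centred on their medians the median of all tested probe sets was 0.21, and it was 0.31 when the hybridisation controls were set equal. Under both, 6 member probe sets were higher and 1 was lower at an unadjusted p under 0.05, where 22.7% and 23.3% of all tested probe sets were higher and 6.19% and 4.03% lower. Each tested member probe set is therefore given beside the median of its decile and the number of 21 alternatives that kept its sign. Marker genes and other calcium genes are not given in this way. The alternatives are other scalings, filters, covariates and weights and the removal of each mouse in turn. Those that change only the filter or the prior of limma cannot alter a difference. Where the groups do not overlap, removing 1 mouse cannot turn the sign.

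Calbindin gave the clearest High Exploration excess among the buffers, but only by some of its probe sets. On its brightest probe set, 1417504_at, the signals of the High Exploration mice were 14.03, 14.50, 13.88, 13.07 and 12.73. Those of the Low Exploration mice were 12.44, 12.37, 11.95, 12.62 and 11.24. All 5 High Exploration mice lay above all 5 Low Exploration mice, though the nearest mice of the groups were only 12.73 and 12.62. The difference was 1.51 (SE 0.42, limma adjusted p = 0.0675), a 2.86-fold excess, with a 95% interval of 0.60 to 2.42. The median of its decile was 0.43. It passed with array weights (1.60, limma adjusted p = 0.0425) and without High Exploration replicate 5 (1.74, limma adjusted p = 0.0473), the mouse with the lowest signal of its group, but 9.81% and 4.53% of all tested probe sets then passed too. With the poly-A control level as a covariate it turned to −0.43 (SE 0.69), while the other 20 alternatives kept it between 0.29 and 2.14.

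The other Calb1 probe sets split. Probe set 1456934_at followed the brightest one, at 9.17, 9.40, 9.46, 8.14 and 8.58 in High Exploration. In Low Exploration it read 8.25, 7.75, 8.30, 8.22 and 5.36. The difference of 1.37 (SE 0.56, limma adjusted p = 0.127) was 0.82 without Low Exploration replicate 5, the mouse at 5.36, and its decile had a median of −0.55. It kept its sign under 19 of 21 alternatives. Probe set 1448738_at, which was designed from the same transcript record as the brightest one, did not separate the groups, at 10.37 ± 0.51 and 10.40 ± 0.33 (SD, n = 5 each) with a 95% interval of −0.77 to 0.72 for the difference. Its High Exploration mice lay between 9.69 and 10.79 and its Low Exploration mice between 10.13 and 10.81. Its decile median was 0.43, and 12 of 21 alternatives kept the sign. Probe set 1458836_at was lower in High Exploration, at 8.15 ± 0.71 against 9.19 ± 0.72 (SD, n = 5 each), a difference of −1.04 (SE 0.45, limma adjusted p = 0.144) beside a decile median of −0.47, with the sign kept by 20 of 21 alternatives. Averaged over its 4 probe sets, Calb1 differed by 0.46 (SE 0.31, limma adjusted p = 0.354).

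Markers of the cells that carry calbindin are given beside it. Among 5 tested markers of dentate granule neurons 2 were higher and 3 lower (3 and 2 after centring), and none passed. Tdo2 differed by −1.51 (SE 0.42, limma adjusted p = 0.0675), with every High Exploration mouse below every Low Exploration mouse (6.78% of all tested probe sets). Dock10 differed by 1.26 (SE 0.41, limma adjusted p = 0.0863). Prox1, the transcription factor that defines these neurons, gave −0.74. The summed signal of the list, on the log2 scale, ranged from 13.78 to 16.04 in High and from 13.54 to 15.53 in Low Exploration. It depends much on 1 gene, Dsp, which alone read 12.25 to 15.85 in High and 11.96 to 15.24 in Low Exploration. Of 7 tested pyramidal markers 3 were higher and 4 lower (5 and 2 after centring, 2 and 5 after cyclic loess), with summed signals of 13.96 to 14.38 and 13.84 to 14.32. Slc17a7, a vesicular glutamate transporter, differed by −2.11 (SE 0.55, limma adjusted p = 0.0645), with no overlap of the groups (6.78% of all tested probe sets in this direction). Neurod6, a transcription factor of pyramidal neurons, differed by 1.18 (SE 0.35, limma adjusted p = 0.0729). In bulk tissue fewer cells of a type and less RNA per cell cannot be told apart.

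Calretinin and parvalbumin varied widely among mice of 1 group. The Calb2 signals were 5.12, 7.41, 6.17, 6.05 and 5.68 in High Exploration. In Low Exploration they were 6.23, 5.70, 8.65, 7.70 and 7.96, so that 3 of these mice lay above all High Exploration mice. The difference of −1.16 came from a probe set below the filter, and in the fit over all probe sets it had an SE of 0.63 and an adjusted p of 0.298 (limma). The median of its decile was −0.61. Of the mossy cell markers only Ajap1 passed the filter on low signals (0.39, limma adjusted p = 0.438), with Drd2 at 7.35 and 7.46 and Calcrl at 7.44 and 7.22 in High and Low Exploration.

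Pvalb, the buffer of basket cells, read 10.63, 11.29, 13.37, 10.07 and 10.03 in High Exploration. In Low Exploration it read 11.51, 10.31, 9.20, 9.45 and 9.73. Only High Exploration replicate 3, at 13.37, lay above every Low Exploration mouse. The difference was 1.04 (SE 0.65, limma adjusted p = 0.280, 95% interval −0.36 to 2.44), beside SDs of 1.38 in High and 0.92 in Low Exploration. Without that mouse it was 0.47. The median of its decile was 0.43, and 20 of 21 alternatives kept the sign. On the same array the interneuron genes Npy and Reln read 11.66 and 14.35. The other High Exploration mice ranged from 7.92 to 11.64 and from 12.31 to 14.62, and Low Exploration mice reached 10.84 and 12.73. Its Npy was thus narrowly the highest of all arrays, and its Reln was not. The part of interneuron content in the Pvalb signal of this mouse was not tested.

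Interneuron markers lay on both sides of 0. Of 6 tested, 4 were higher and 2 lower, and none passed. The median was 1.05. After centring and at equal hybridisation controls 5 were higher and 1 lower (medians 1.59 and 1.68), and after quantile normalisation 4 and 2 (median 0.59). With the hybridisation covariate 2 were higher and 4 lower (median −0.38) and with the poly-A covariate 3 and 3 (median −0.32). Vip, a neuropeptide of some interneurons, was above every Low Exploration mouse in all High Exploration mice (1.29, SE 0.35, limma adjusted p = 0.0671). Slc32a1, the transporter that loads GABA into vesicles, was below in all (−1.39, SE 0.35, limma adjusted p = 0.0629). Of all tested probe sets 2.14% and 6.78% were without overlap in these directions. Gad1, which makes GABA, differed by 0.99, Gad2 by −0.16, Reln by 1.12 and Npy by 1.36. The summed signal of the list was 13.77 to 15.73 in High and 13.35 to 14.13 in Low Exploration.

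S100b did not separate the groups. On probe set 1434342_at High Exploration mice read 9.35 ± 0.29 and Low Exploration mice 9.20 ± 0.48 (SD, n = 5 each), a difference of 0.15 with a 95% interval of −0.57 to 0.88, a decile median of −0.17 and the sign kept by 18 of 21 alternatives. The other probe set, 1419383_at, scattered over a far wider range, with High Exploration mice at 8.33, 5.90, 9.12, 7.32 and 9.98. The Low Exploration mice were at 5.88, 10.00, 10.03, 8.84 and 9.14. High Exploration replicate 2 and Low Exploration replicate 1 read 5.90 and 5.88, while the remaining mice were at 7.32 and above. The difference of −0.65 (SE 0.87) was −0.09 without the former and −1.37 without the latter. Its decile median was −0.47, and 19 of 21 alternatives kept the sign.

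Astrocyte markers are the nearest comparison for S100b. Of 7 tested, 5 were higher and 2 lower, where 37.9% of all tested probe sets were higher. The counts were 7 and 0 after centring (58.8% of all higher) and 4 and 3 after quantile normalisation (48.6%). The summed signal of these markers, 15.74 to 16.23 in High and 14.73 to 15.41 in Low Exploration, did not overlap between the groups. Gja1, the main astrocyte connexin, differed by 1.25 (SE 0.36, limma adjusted p = 0.0701) and its groups did not overlap (2.14% of all tested probe sets in this direction). It made up 53.4% to 70.1% of that sum in High and 32.1% to 57.2% in Low Exploration mice, and without it the sums, at 14.09 to 15.03 and 13.77 to 14.38, overlapped. Gjb6, a further connexin, differed by 0.92 (SE 0.36, limma adjusted p = 0.116), and Slc1a2 and Slc1a3, the glutamate transporters, by −0.24 and −0.16. Of the tested astrocyte markers Gjb6 lay at percentile 78.1 of mean signal and the others at 94.9 to 99.3. The top decile of all probe sets had a median difference of 0.43. Of 4 tested oligodendrocyte markers 3 were higher and 1 lower (2 and 2 after quantile normalisation), led by Mobp (0.66, limma adjusted p = 0.188) and Mag (0.63, limma adjusted p = 0.383). Their summed signals were 15.61 to 16.54 in High and 15.38 to 16.68 in Low Exploration, of which Mbp alone read 15.26 to 16.43 and 15.02 to 16.60.

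None of the calcium sensors of the hippocalcin family passed the test. The values of Hpcal4 and Ncald, whose brightest probe sets lay apart between the groups, are given first. Hpcal4 read 12.39, 12.24, 13.29, 12.99 and 12.51 in High Exploration. The Low Exploration mice were at 11.57, 11.94, 11.25, 12.08 and 11.63. Every High Exploration mouse lay above every Low Exploration mouse, the nearest being 12.24 and 12.08. The difference of 0.99 (SE 0.33, limma adjusted p = 0.0894) was a 1.99-fold excess, with a 95% interval of 0.27 to 1.71. It stayed positive under all 21 alternatives, from 0.55 with quantile normalisation to 1.62 at equal hybridisation controls. As deposited the median of its decile was 0.43. Over these alternatives limma's adjusted p ranged from 0.0528 to 1.00.

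Ncald was the member with the most uniform pattern across probe sets, all 3 of which were lower in High Exploration mice. The brightest, 1417568_at, read 7.86, 9.20, 8.67, 9.36 and 9.46 in High Exploration. In Low Exploration it read 9.59, 9.58, 9.86, 10.31 and 10.04, with no overlap between the groups. The difference was −0.96 (SE 0.37, limma adjusted p = 0.116). Probe set 1444466_at gave −1.01 (SE 0.36, limma adjusted p = 0.0969), with 4 of the 5 Low Exploration mice above all High Exploration mice. Probe set 1417569_at, which shares its transcript record with the brightest one, had High Exploration signals of 7.83, 7.20, 5.56, 7.28 and 5.36. Its Low Exploration signals were 8.67, 6.92, 9.22, 9.36 and 9.44, all but 1 above every High Exploration mouse. Its difference of −2.08 (SE 0.61, limma adjusted p = 0.0720) was the largest among the tested member probe sets, a 4.22-fold lower signal. All 3 kept their sign under all 21 alternatives, with ranges of −1.10 to −0.34, −1.24 to −0.39 and −2.86 to −1.45. The medians of their deciles were −0.17, −0.47 and −0.57. Averaged over the 3 probe sets, Ncald differed by −1.35 (SE 0.31, limma adjusted p = 0.0752).

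Vsnl1 differed in opposite directions on its probe sets, as did the deciles these lie in, with medians of 0.43 and −0.55. The bright one, 1420955_at, read 13.44, 13.06, 12.24, 13.33 and 12.91 in High Exploration. In Low Exploration it read 12.02, 12.50, 11.39, 12.45 and 11.82, so that 4 of 5 High Exploration mice lay above all Low Exploration mice. The difference was 0.96 (SE 0.36, limma adjusted p = 0.106). The dim one, 1450055_at, which was designed from the same transcript record, read 7.81, 7.91, 8.23, 7.61 and 8.60 in High Exploration. Its Low Exploration signals were 8.46, 8.81, 9.07, 8.88 and 8.86, with a difference of −0.78 (SE 0.31, limma adjusted p = 0.122). Both kept their sign under all 21 alternatives, from 0.10 to 1.59 and from −0.93 to −0.16. Averaged, the gene differed by 0.09 (SE 0.25).

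Neither hippocalcin nor Hpcal1 passed the test. Hpca 1450930_at read 8.78, 9.41, 9.78, 9.07 and 8.29 in High Exploration. In Low Exploration it read 8.28, 8.41, 8.17, 8.49 and 9.19, and the groups overlapped. The difference of 0.55 (SE 0.37, limma adjusted p = 0.308) stayed positive under all 21 alternatives, with a decile median of −0.47. The further probe set 1425833_a_at, at percentile 16.4 of mean signal and not tested, was at 4.93 ± 0.78 for High Exploration and at 6.64 ± 0.94 for Low Exploration mice (SD, n = 5 each). Its difference of −1.71, with 4 of 5 High Exploration mice below all Low Exploration mice, had an SE of 0.55 and an adjusted p of 0.148 in the limma fit over all probe sets, and its decile had a median of −0.65. Hpcal1 gave 10.03 ± 0.97 and 10.35 ± 0.20 (SD, n = 5 each). High Exploration replicate 1, at 8.39, set the wider spread, and without it the difference turned from −0.32 to 0.09. The decile median was 0.43, and 16 of 21 alternatives kept the sign.

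**Figure D2:**
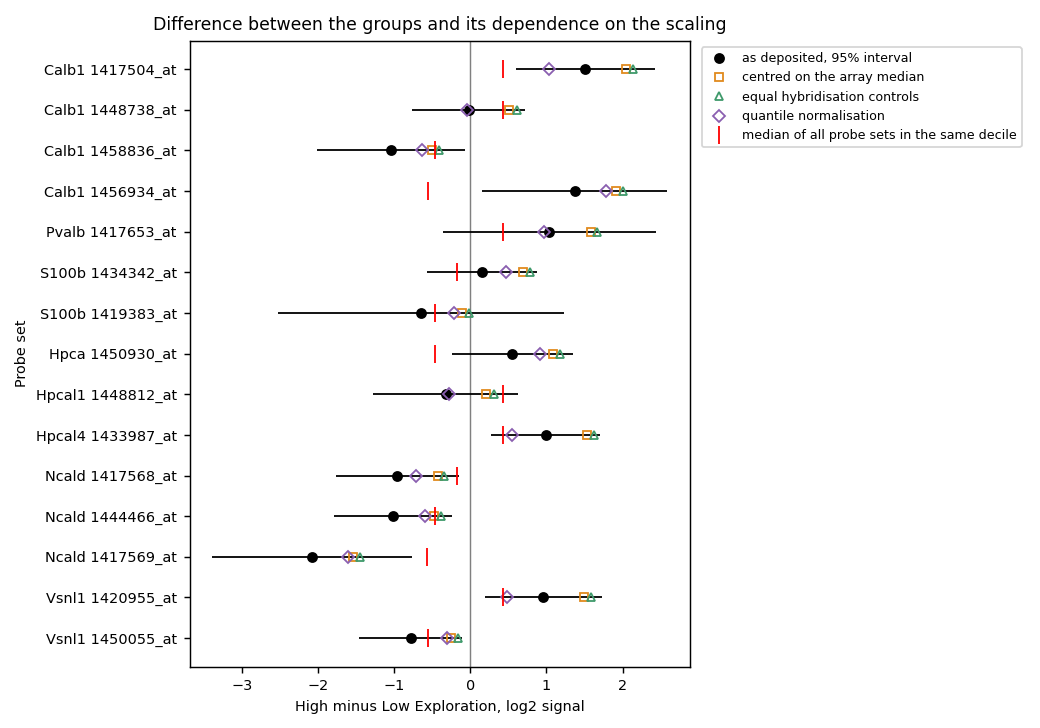
Mean log2 signal of High Exploration mice minus that of Low Exploration mice (horizontal axis) for the 15 tested probe sets (vertical axis). Black points with 95% intervals are the signals as deposited, open symbols the values after 3 other scalings and red ticks the median of all probe sets in the same decile of mean signal. Ncald stays left of 0 and Hpcal4 right of 0 under all of them, and Calb1 1448738_at and Hpcal1 cross 0.

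How far the probe sets of a gene part from each other can be read within an array, where the constant that scales it has no effect. A shift that varies with signal level stays in such a difference. For each further probe set of a gene, its log2 signal minus that of the brightest probe set of the gene was taken on every array and compared between the groups, over 6549 such pairs of all genes. Of these, 0.351% passed limma's threshold, and none of the 7 tested pairs of members did. In 1 of the 7 the groups did not overlap (6.84% of all pairs).

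That pair was Vsnl1. Its dim probe set minus the bright one came to −4.96 ± 0.77 for High Exploration and −3.22 ± 0.58 for Low Exploration mice (SD, n = 5 each), a difference of −1.75 (SE 0.49, limma adjusted p = 0.0661). For Calb1, probe set 1458836_at parted from the brightest by −2.55 (SE 0.67, limma adjusted p = 0.0604) and 1448738_at by −1.54 (SE 0.56, limma adjusted p = 0.110), while 1456934_at kept its distance at −0.14 (SE 0.48). The Calb1 1458836_at pair passed with array weights and without High Exploration replicate 5 (limma adjusted p = 0.0340 and 0.0357), and the Vsnl1 pair with array weights (limma adjusted p = 0.0362), where 9.91% and 6.15% of all pairs passed under these settings. The Vsnl1 difference was −0.79 after quantile normalisation, −0.84 after cyclic loess and −0.52 with the poly-A covariate. That of Calb1 1458836_at was −1.65, −1.68 and 0.92 under the same settings and −0.71 with the hybridisation covariate, and that of 1448738_at was −0.07 with the hybridisation and 0.53 with the poly-A covariate. The Ncald pairs gave −0.05 (SE 0.54) and −1.11 (SE 0.71), and S100b −0.80 (SE 0.89). The median over all pairs was −0.28. The decile median was 0.43 for the brightest probe sets of Calb1 and Vsnl1. It was −0.47 for Calb1 1458836_at, 0.43 for 1448738_at, −0.55 for 1456934_at and −0.55 for Vsnl1 1450055_at. The part of signal level in the pair differences was not tested. The pair of Hpca, whose further probe set was below the filter, gave −2.26 without overlap of the groups.

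**Figure D3:**
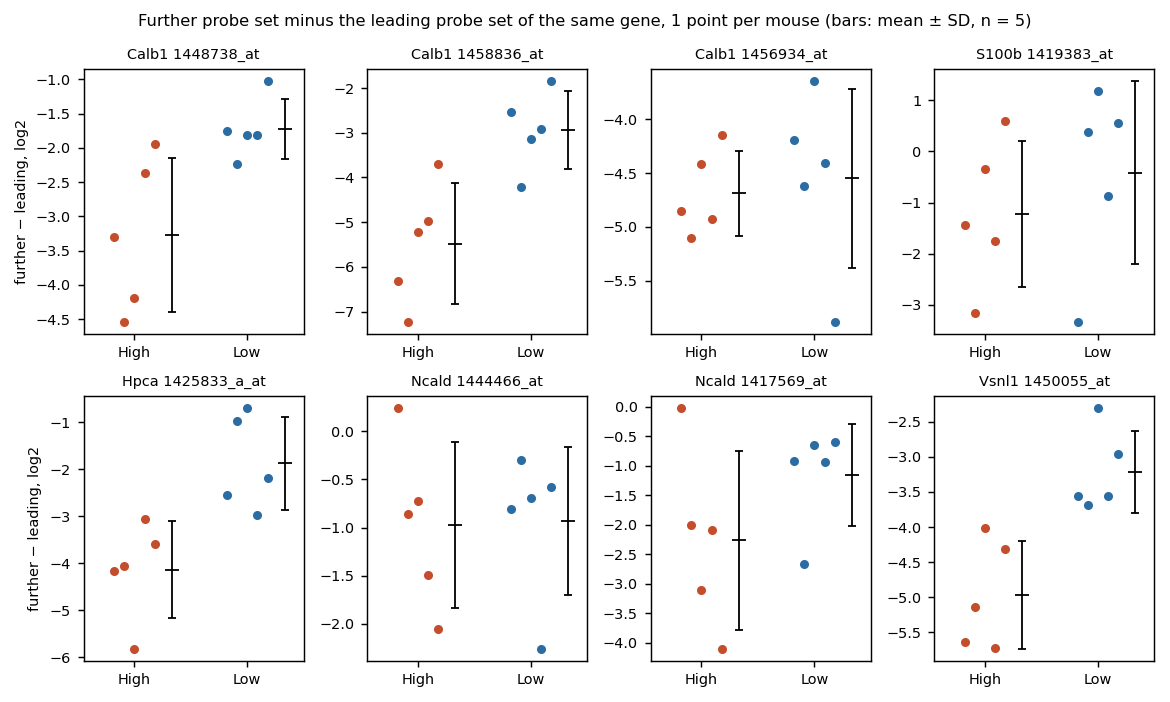
Log2 signal of each further probe set minus that of the brightest probe set of the same gene (vertical axes, a different range in each panel), 1 point per mouse with the mean and SD of each group (n = 5). The Vsnl1 difference lies between −5.72 and −4.02 in High Exploration and between −3.69 and −2.31 in Low Exploration, and the Hpca difference also has no overlap.

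The brightest probe sets of the members varied together to different degrees. Over the 10 arrays, on log2 signal minus the array median, Pearson's r was 0.81 between Calb1 and Vsnl1, 0.79 between Calb1 and Hpcal4 and 0.78 between Hpcal4 and Vsnl1. The lowest values were −0.59, of S100b with Ncald and with Calb2. These are descriptions over 10 arrays that include the difference between the groups. By the same measure the genes most like Calb1 were Qk and Pde3b (r of 0.993 and 0.991), most like Vsnl1 Peg3 and Tmeff2 (0.993 and 0.990), and most like Hpcal4 Chmp4b and Ptprs (0.965 and 0.961). For Ncald they were Hcfc1 and Pln (0.944 and 0.939), for Hpca Jak2 and Rnf144b (0.960 and 0.947), and for Hpcal1 Laptm5 and Heatr6 (0.947 and 0.929). For Pvalb they were Cct7 and Ifi27l2a (0.987 and 0.986), for S100b Ank2 and Smad2 (0.965 and 0.954), and for Calb2 Nudt16 and, by a probe set other than its brightest, Kcnip1 (0.916 and 0.912). They are the highest of all tested probe sets with 1 gene symbol, over few arrays.

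Other genes that sense, store or move calcium were counted by list, with the brightest probe set for each gene. None of the 38 tested passed limma's threshold, while 3 did without High Exploration replicate 5, when 4.53% of all tested probe sets passed. At an unadjusted p under 0.05, 5 were higher and 4 lower in High Exploration mice, beside 9.57% and 20.7% of all tested probe sets. Among the other neuronal calcium sensors 4 of 5 tested genes were higher, with a median of 0.63, among them Kcnip4 (1.29, SE 0.60, limma adjusted p = 0.169), while Kcnip3 gave −0.66 (SE 0.36, limma adjusted p = 0.222). Both belong to a group of sensors that bind potassium channels. All 7 tested S100 genes other than S100b were higher as deposited, with a median of 0.72, where 37.9% of all tested probe sets were higher. They were so under all 4 other scalings. Of all tested probe sets, 58.8% were then higher after centring and 62.7% at equal hybridisation controls. The share was 48.6% after quantile normalisation and 48.1% after cyclic loess. S100a1, S100a10 and S100a16 lay at percentiles 98.1, 95.5 and 90.6 of mean signal, where the top decile had a median difference of 0.43. S100a13, S100a4, S100a8 and S100a9 lay at 83.6, 66.6, 62.4 and 55.4. Without High Exploration replicate 3, Low Exploration replicate 3 or Low Exploration replicate 4, 5 were higher and 2 lower, with medians of 0.23, 0.42 and 0.72, and with the level of the hybridisation controls as covariate 2 were higher and 5 lower (median −0.40). Of the 5 S100 genes below the filter, 1 was higher and 4 were lower. S100a10, the partner of annexin 2, differed by 1.36 (SE 0.48, limma adjusted p = 0.0984) and S100a1 by 2.14 (SE 0.82, limma adjusted p = 0.115).

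The other cytosolic EF-hand genes had 2 higher and 4 lower of 6 tested, with a median of −0.21, and 5 higher and 1 lower after centring on array medians. Sri, which encodes sorcin, a regulator of calcium release channels, differed by −1.51 (SE 0.42, limma adjusted p = 0.0675) and Efhd2 by 1.13 (SE 0.60, limma adjusted p = 0.215). Genes for calcium binding in the endoplasmic reticulum had 6 higher and 3 lower of 9, and 5 and 4 after quantile normalisation. Canx, the chaperone calnexin, was higher in every High than in every Low Exploration mouse, at 13.28 ± 0.77 against 11.69 ± 0.31 (SD, n = 5 each, limma adjusted p = 0.0636). Casq2, which encodes a calsequestrin, was lower in every one, at 6.89 ± 1.28 against 9.17 ± 0.62 (SD, n = 5 each, limma adjusted p = 0.0636). Of the pumps and exchangers 5 were higher and 6 lower of 11, and 8 higher and 3 lower after centring. Atp2b4, a calcium pump of the plasma membrane, differed by −2.31 (SE 0.58, limma adjusted p = 0.0629) and no overlap of the groups, and Slc8a1, the sodium-calcium exchanger, by 1.19 (SE 0.41, limma adjusted p = 0.0963). Of the marker and calcium list genes without overlap, Gja1, Canx and Vip were higher, at percentiles 99.3, 97.7 and 95.9 of mean signal. Tdo2, Casq2, Slc17a7, Slc32a1 and Atp2b4 were lower, at percentiles 90.5, 68.3, 66.7, 65.2 and 57.3. Of all tested probe sets, 2.14% were higher and 6.78% lower without overlap. The part of signal level in these differences was not tested.

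**Figure D4:**
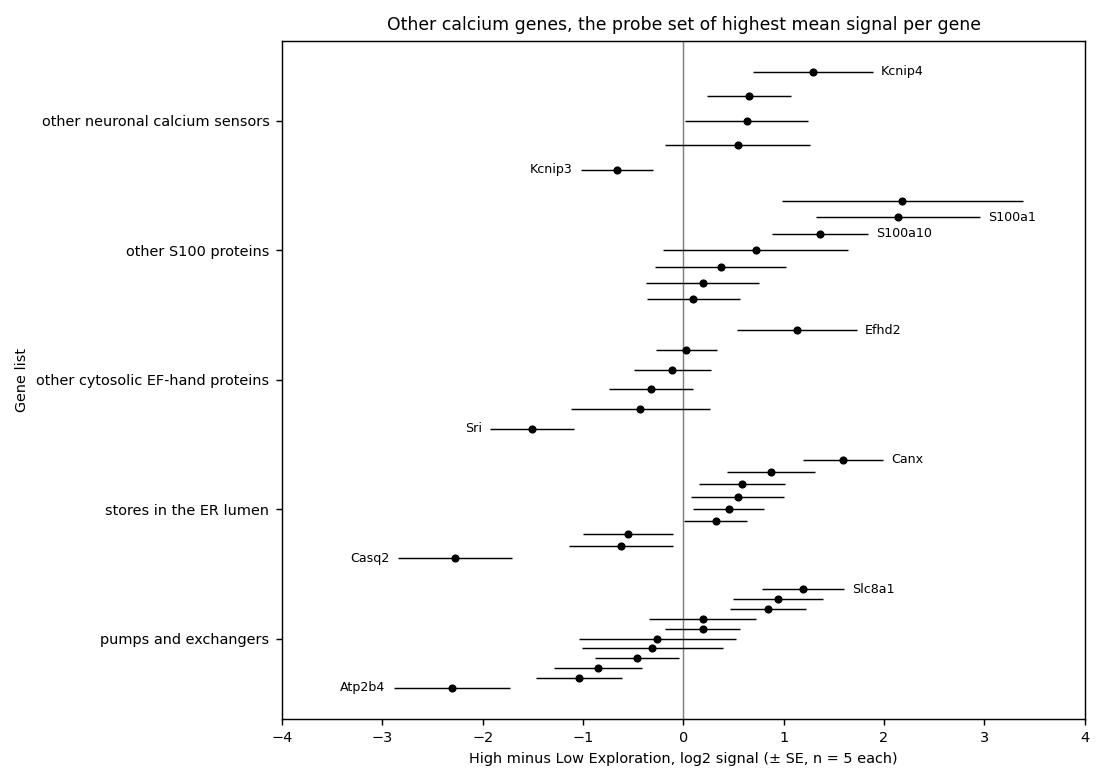
Mean log2 signal of High Exploration mice minus that of Low Exploration mice with its SE (horizontal axis, n = 5 each) for the tested genes of 5 lists of other calcium genes (vertical axis), 1 point per gene. All 7 points of the S100 list lie right of 0 in the signals as deposited (5 of 7 without High Exploration replicate 3, Low Exploration replicate 3 or Low Exploration replicate 4, and 2 of 7 with the level of the hybridisation controls as covariate), and the other lists hold genes on both sides.

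Markers of tissue next to the hippocampus, and of blood, overlapped between the groups in their summed signals. All 3 tested thalamic markers were lower in High Exploration (1 was higher and 2 lower after centring), led by Rora (−1.20, SE 0.61, limma adjusted p = 0.198) and Prkcd (−0.72, SE 0.43, limma adjusted p = 0.265), with summed signals of 9.87 to 12.35 and 11.09 to 12.00. Of the choroid plexus markers Ttr differed by 0.57 (SE 0.34, limma adjusted p = 0.262) and Folr1 by −0.27, with summed signals of 14.17 to 15.05 and 13.79 to 14.58. Ttr alone read 14.13 to 15.04 in High and 13.62 to 14.57 in Low Exploration. Both measured blood genes were below the filter, with summed signals of 6.04 to 7.94 and 7.56 to 8.53. The part of these cells in the member differences was not tested.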

How the data were processed

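Total RNA of the whole hippocampus of 10 mice was hybridised to 10 Affymetrix whole-genome mouse arrays, after double-round amplification per the study's methods. The authors summarised the scans with MAS5 and deposited an intensity signal per probe set on the linear scale. They applied no quantile step. Each array had been scaled so that its mean without the top and bottom 2% of signals was 500. The files hold no detection calls, background values or batches.

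Groups came from the sample titles, which number no replicates, so replicates were numbered in accession order. Log2 signals were taken as deposited, without a pseudocount. Probe sets with a mean signal over the 10 arrays above the median (220) were tested, 22518 of 45037, with limma 3.58.1 (lmFit, eBayes) in R 4.3.3, as High minus Low Exploration, with Benjamini-Hochberg adjustment over all tested and a threshold of 0.05. The 64 control probe sets were left out. This filter is on the mean of linear signals, and the filter on mean log2 signals was added as an alternative after the data were seen. Within-array differences between probe sets of 1 gene were fitted the same way over 6549 pairs. Probe sets were named from the platform annotation, where 34945 had 1 gene symbol, and 34754 of these matched RefSeq by Entrez identifier with no symbol changed. A gene is shown by its probe set with the highest mean signal, here called the brightest, unless another is named. Correlations between arrays ranged from 0.579 to 0.857 over tested probe sets. Each array is 1 mouse. The fits were tested on simulated data.

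The 9 genes and the lists of other calcium genes and cell type markers were chosen with earlier results of these data known. Named were all member probe sets, the 2 tested genes of each list with the lowest p and the 2 genes most correlated with each member by any of their tested probe sets. C1ql2, Fibcd1, Prox1, Dsp, Gad1, Gad2, Npy, Reln, Drd2, Calcrl, Slc1a2, Slc1a3 and Mbp were named after their values were seen. Alternatives were no filter, a pseudocount of 23.0 (the 10th percentile of the signals), centring on array medians, quantile and cyclic loess normalisation, equal hybridisation controls, either control level as a covariate, array weights, a trended robust prior, and leaving out each mouse.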

Additional observations from a re-analysis of the deposited data

Results flagged for a closer look

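In 34 groups of 5 signals, 1 for each of the 17 probe sets in High and in Low Exploration mice, 2 held a mouse far from the others by Dixon's criterion (a gap above 0.710 of the group's range), and chance alone flags about 1 in 20. On Calb1 1456934_at, Low Exploration replicate 5 read 5.36, with the nearest mouse of its group at 7.75, a gap of 0.812 of the range. On S100b 1419383_at, Low Exploration replicate 1 read 5.88, with the nearest at 8.84, a gap of 0.712 of the range.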

How the results depend on the processing

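No paired analysis was possible because the labels give the groups no shared replicate numbers. Member probe sets that passed numbered 1 with array weights and 0 to 1 when each mouse was left out, the 1 being Calb1 1417504_at without High Exploration replicate 5. Pairs that passed numbered 2 with array weights and 0 to 1 with a mouse left out, and other calcium genes 5 and 0 to 3. Those higher at an unadjusted p under 0.05 numbered 1 with the hybridisation covariate, 0 with the poly-A covariate and 3 to 5 with a mouse left out. Those lower numbered 1 after centring, quantile, cyclic loess, equal hybridisation controls or the hybridisation covariate, 0 with the poly-A covariate and 2 to 5 with a mouse left out. Probe sets without overlap numbered 1 after quantile normalisation and 3 to 4 with a mouse left out, and the covariates give no such count. The member median was −0.32 without the filter, 0.51 centred, 0.61 at equal hybridisation controls and −0.13 to 0.12 with a mouse left out.

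Of single probe sets, 23 values over all alternatives had the opposite sign, and the cause was not tested. With the poly-A covariate these were Calb1 1417504_at (−0.43), 1448738_at (0.10), 1458836_at (0.49) and 1456934_at (−0.54), S100b 1434342_at (−0.54) and 1419383_at (1.11) and Hpcal1 (0.90). With the hybridisation covariate they were Calb1 1448738_at (0.22) and 1456934_at (−0.22), Pvalb (−0.26), S100b 1434342_at (−0.15) and 1419383_at (1.18) and Hpcal1 (0.34). Centred and at equal hybridisation controls, Calb1 1448738_at gave 0.51 and 0.61 and Hpcal1 0.21 and 0.31, and Calb1 1448738_at gave 0.05 with array weights. With a mouse left out, Calb1 1448738_at ranged from −0.13 to 0.15 and Hpcal1 from −0.48 to 0.09. No other member probe set changed sign, though S100b 1434342_at came to 0.00 at the lowest without a covariate.

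The calls over all probe sets moved with the processing too. They numbered 51 as deposited, 32 without the filter, 3 with the filter on mean log2 signals chosen after seeing the data, 408 with the pseudocount, 3 centred, 2 after quantile normalisation, 3 after cyclic loess and 0 at equal hybridisation controls or with either covariate. They numbered 2208 with array weights, 130 with a trended robust prior, 1019 without High Exploration replicate 5 and 0 without Low Exploration replicate 3. Both covariates lie close to the groups and widen the errors, and the files give no background level with which to bound dim probe sets.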
